A study of Drosophila melanogaster with 5 samples.

Results

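The coats of the vesicles that carry proteins between the endoplasmic reticulum (ER) and the Golgi were followed here through 7 genes: the coatomer genes epsilonCOP, deltaCOP and gammaCOP, the COPII genes Sec13, Sec31 and Sec16, and eca, which encodes a p24 cargo protein. A probe set was taken where the array annotation gives one of these symbols and no other. Each gene had 1 such probe set, so the members are 7 of the 13647 probe sets with a single symbol and of the 18769 gene probe sets in all. All 7 passed the filter on dim signals described in the methods. The genes were chosen with the difference between the 2 groups of arrays already known, so their differences between the groups are given as a description and carry no p-value.

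Secretory cargo leaves the ER in vesicles coated with COPII. Its inner layer holds Sec23 and Sec24 and is recruited by the GTPase Sar1, its outer cage is built from Sec13 and Sec31, and the scaffold Sec16 marks the exit sites. COPI, the coatomer, is recruited to Golgi membranes by Arf GTPases and returns escaped ER residents and cargo receptors to the ER. The larval salivary gland makes glue and other secreted proteins in bulk, and in the embryonic gland the transcription factor CrebA raises the genes of this machinery, downstream of fkh.

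RNA was measured in dissected salivary glands of Drosophila melanogaster on 5 one-colour Affymetrix arrays. For 3 arrays the labels give glands of animals carrying P{hs-Fkh111}, a transgene that puts fork head (fkh), a forkhead transcription factor of the gland, under a heat shock promoter, which is not restricted to the gland. The other 2 arrays are labelled as glands of w1118, a white-eyed laboratory strain without a named transgene, written w1118(3) in the titles. Every animal, w1118 included, was reared at 25 °C and heat shocked at 37 °C for 30 min, 9.5 h after puparium formation. Glands were taken 14 h after puparium formation. The number of animals per array is not stated, and the submitters call the arrays of a group biological replicates. The comparison addresses which genes of the gland at this stage are responsive to Fork head.

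Median intensity was 44.5 to 48.8 on the arrays labelled Fkh and 49.0 to 49.3 on the w1118 arrays. The fkh probe set itself ran against the labels, with 41.5, 47.0 and 58.3 on the arrays labelled Fkh and 130 and 120 on the w1118 arrays. Whether this probe set lies in the part of fkh that the transgene carries is not known here. The groups are therefore called by their labels throughout. Of the 12 listed salivary gland markers, 11 were tested, of which 8 rose and 1 fell (limma, Benjamini-Hochberg adjusted p under 0.05, as for every call below). Over all genes tested, 21.5% rose and 19.3% fell. The summed intensity of the 12 markers was 42050 to 43570 on the arrays labelled Fkh, against 12350 to 15880 on the w1118 arrays. Of the markers of other tissues, 3 of 6 tested fat body genes, 3 of 5 tested haemocyte genes (7 measured) and 3 of 3 tested tracheal genes fell. The sums over all measured genes of each tissue were 11810 to 13130, 455 to 594 and 1884 to 1965 on the arrays labelled Fkh, against 21760 to 23020, 1231 to 1444 and 3656 to 4667 on the w1118 arrays. The 3 measured muscle genes had sums of 34.6 to 67.2 and 62.7 to 63.7 and none passed the filter. The 3 measured imaginal ring and epidermis genes were dim, with sums of 91.9 to 107.5 on the arrays labelled Fkh and 75.5 to 87.4 on the w1118 arrays, and the 1 of them that passed the filter was not called. No measured marker was at 0 on all arrays. The 3' actin control probe set, divided by its 5' counterpart as a check of RNA quality, gave 4.94, 4.30 and 3.37 on the arrays labelled Fkh and 2.47 and 2.54 on the w1118 arrays. The eIF-4a control gave 2.35, 1.81 and 1.68 against 1.53 and 1.55, and the 18S rRNA control 4.49, 2.41 and 4.51 against 2.32 and 1.20. The GAPDH control, at 1.56, 1.14 and 1.11 against 1.16 and 1.14, did not separate the groups. The 5' bioB control gave 326, 307 and 620 on the arrays labelled Fkh, against 569 and 514 on the w1118 arrays. In every bioB control, arrays 1 and 2 labelled Fkh lay below array 3 and both w1118 arrays. The cause of this split and its part in the results were not tested. The tissue markers and the actin, eIF-4a and 18S rRNA ratios differ along the same groups as every result below, and their part in the results was not tested. In such whole-gland RNA, fewer cells of a type and less RNA per cell cannot be told apart.

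Most of the coat genes were moderately higher on the arrays labelled Fkh. All 3 coatomer genes, Sec13 and Sec16 were 1.44 to 2.00 times as high in mean intensity, Sec31 differed little, and eca was lower, at 0.657 times its w1118 level. In the fit over all probe sets, 5 of the 7 genes were past the threshold as higher and 1 as lower. Over all 8298 genes tested, 40.8% were past it, 21.5% as higher and 19.3% as lower, and 39.4% of all 11261 probe sets were. For 6 of the 7 genes each array labelled Fkh lay above both w1118 arrays, and for eca each lay below. Among all genes, 32.5% lay wholly above and 32.8% wholly below. Since the genes were picked with this contrast in view, nothing is read from their counts against these shares.

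**Figure D1:**
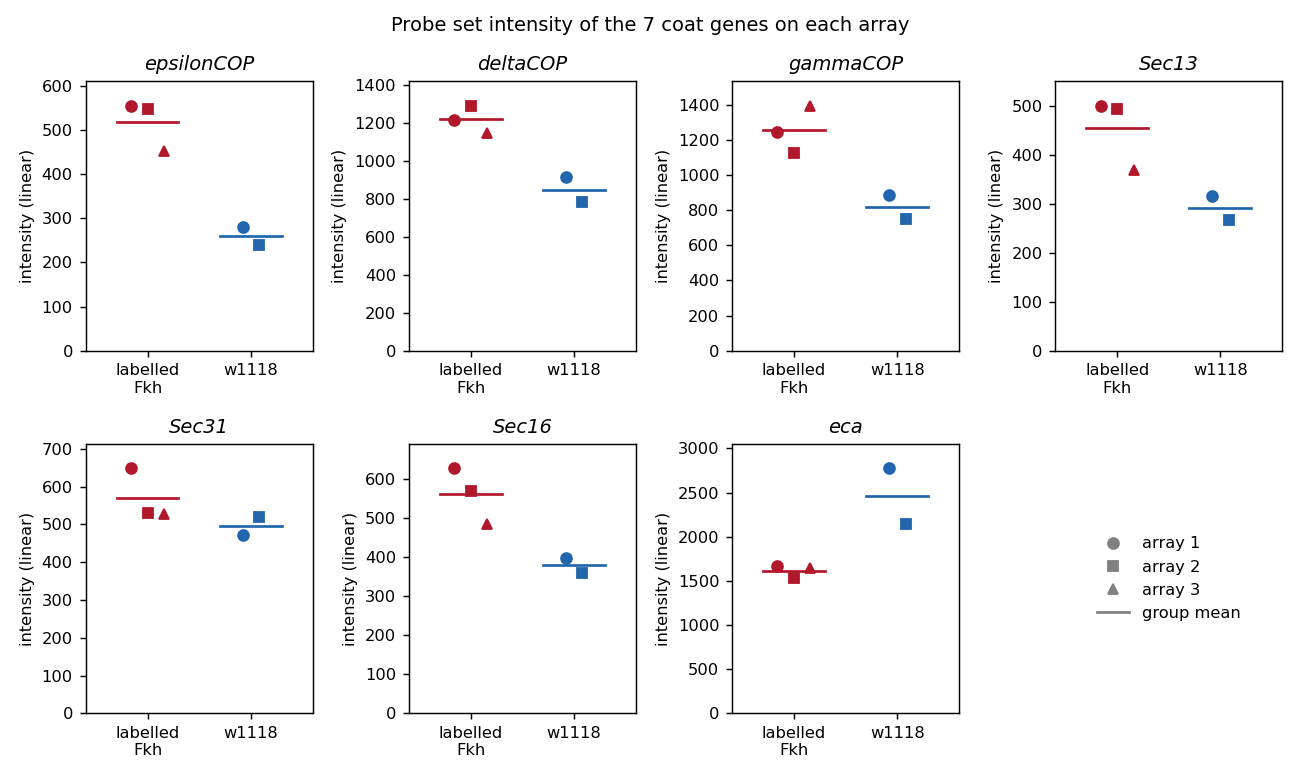
Intensity (linear scale, starting at 0) of each of the 7 coat genes on the 3 arrays labelled Fkh (red) and the 2 w1118 arrays (blue), with the array number shown by the marker and the group mean as a line. The arrays labelled Fkh lie above both w1118 arrays in every panel except that of eca, where they lie below, and in the Sec31 panel the groups nearly touch.

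Among the coatomer genes, epsilonCOP had the largest difference of the 7 genes. Its product is the subunit that binds and stabilises alphaCOP in the outer part of the coat. Its intensity was 555, 547 and 452 on the arrays labelled Fkh, against 279 and 239 on the w1118 arrays. The lowest array labelled Fkh was thus well above the higher w1118 array. The group means were 518 ± 57.6 (SD, n = 3) and 259 ± 28.5 (SD, n = 2), and the log2 fold, on the scale of log2(intensity + 16) used throughout, was 0.96 ± 0.17 (standard error, as after every ± on a log2 fold).

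The other members of the coatomer differed less. The gene gammaCOP encodes a large adaptor subunit that contacts Arf and cargo, and in the fly embryo it is needed for epithelial tubes to expand. It measured 1245, 1125 and 1395 on the arrays labelled Fkh, against 889 and 749 on the w1118 arrays, a log2 fold of 0.61 ± 0.17. Here the third array labelled Fkh was the highest, whereas for epsilonCOP it was the lowest of its group. The gene deltaCOP encodes the medium adaptor subunit. Its values of 1214, 1290 and 1148 on the arrays labelled Fkh stood against 913 and 784 on the w1118 arrays, a log2 fold of 0.52 ± 0.15. Neither gene's groups overlapped, and the gap between their folds is smaller than either standard error.

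The COPII members did not all differ alike. Sec13, which besides the COPII cage is also part of the nuclear pore, had 502, 494 and 369 on the arrays labelled Fkh and 317 and 267 on the w1118 arrays, with a log2 fold of 0.60 ± 0.19. The third array labelled Fkh lay closer to the higher w1118 array than to the other 2 of its own group. Sec16, the scaffold of ER exit sites, had 627, 568 and 486 on the arrays labelled Fkh, against 399 and 359 on the w1118 arrays. Its log2 fold was 0.54 ± 0.17, and again the third array was the lowest of its group. Sec31, which pairs with Sec13 in the cage, had 649, 531 and 528 on the arrays labelled Fkh, against 473 and 519 on the w1118 arrays. The groups were separated only by the step between 528 and 519, and the log2 fold of 0.19 was of the size of its standard error of 0.16.

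The single member that was lower is eca (eclair), a transmembrane p24 protein that cycles between ER and Golgi in the vesicles whose coats the other genes build. It measured 1668, 1534 and 1645 on the arrays labelled Fkh, against 2776 and 2142 on the w1118 arrays. The arrays labelled Fkh were close together, with 1616 ± 72.0 (SD, n = 3), and the w1118 arrays were spread, with 2459 ± 448 (SD, n = 2). This is a log2 fold of -0.59 ± 0.17.

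In size these differences were ordinary for these arrays. An absolute log2 fold at least as large as that of epsilonCOP was found for 24.7% of all 8298 genes. For deltaCOP, gammaCOP, Sec13, Sec16 and eca the share was 41.3% to 47.3%, and for Sec31 it was 78.0%. The median log2 fold of the 7 genes was 0.54, beside -0.010 for all genes. Because the genes were picked with this contrast in view, nothing is read from that gap.

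Which of the coat genes were past the threshold depended on single arrays and on the processing. Against 6 with all 5 arrays, 1 gene was past it without array 1 labelled Fkh, 2 without array 2, 6 without array 3, 1 without w1118 array 1 and 2 without w1118 array 2. The share of all genes past it moved too, from 40.8% to 31.3%, 31.6%, 45%, 26.6% and 28.1% in the same order. Of the 7 genes, epsilonCOP alone was past it in each of these 5 fits, with log2 folds of 0.85 to 1.06. The fits reuse the contrast by which the genes were chosen, so these counts are a description and no support for a difference. With all 5 arrays, 2 genes were past it after quantile normalization, 3 with a constant of 1 in place of 16, 1 with no filter on dim probe sets and 3 with a filter at the 20th percentile. The shares of all genes past it were 42.7%, 38.8%, 27.3% and 33.4% in these settings. The signs of the 7 folds held each time. The fold of Sec31 was 0.038 after quantile normalization. The fold of eca was -0.40 without w1118 array 1 and -0.78 without w1118 array 2. The third array labelled Fkh, which was nearer to the w1118 arrays in the bioB controls, was also set alone against both w1118 arrays. The log2 folds were then 0.77 for epsilonCOP, 0.43 for deltaCOP, 0.76 for gammaCOP, 0.33 for Sec13, 0.35 for Sec16, 0.09 for Sec31 and -0.56 for eca.

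**Figure D2:**
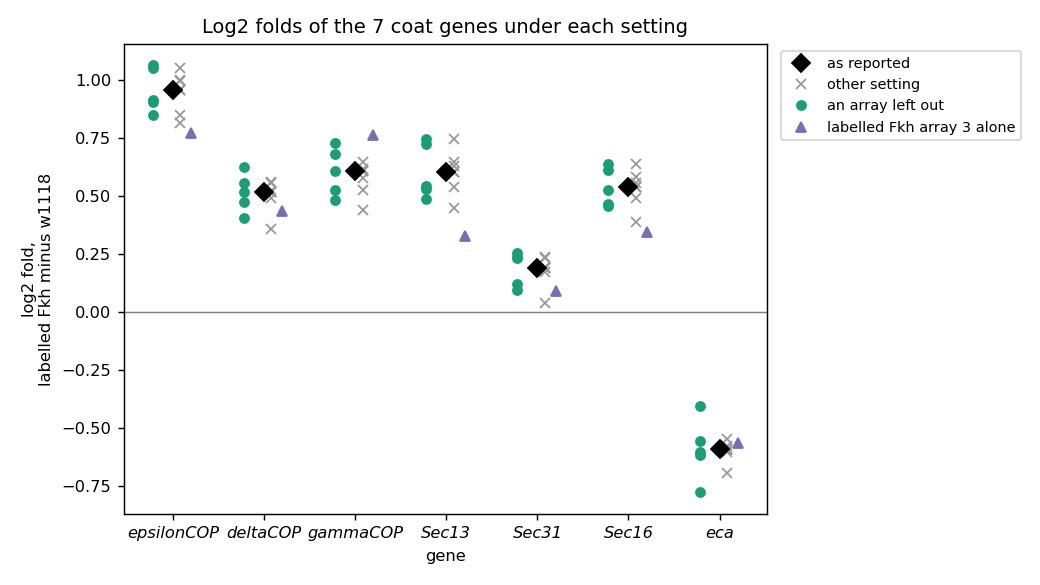
Log2 fold of intensity + 16, labelled Fkh minus w1118 (vertical axis), of each coat gene under the reported setting (diamond), with 1 array left out (circles), with the third array labelled Fkh alone (triangle) and under the other settings (crosses). Every fold keeps its sign, and the folds of Sec13 and Sec16 are lowest with the third array alone, at 0.33 and 0.35.

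The spread within each group is calculated without the difference between the groups. The choice of the genes can still bear on it, since a small spread helps a gene past the threshold. The spread was not compared at matched intensity and was not tested, and for the w1118 group it rests on 1 pair of arrays. On the log2 scale, w1118 array 1 was above w1118 array 2 for 6 of the 7 genes, by 0.14 to 0.37, and below it for Sec31, by 0.13. Over all genes, w1118 array 1 was the higher in 51.5%, with a median difference of 0.009. Among the arrays labelled Fkh, the third was below the mean of the other 2 for 5 genes, by 0.12 for deltaCOP to 0.42 for Sec13. For gammaCOP and eca it was above, by 0.23 and 0.04. Over all genes the third array was the lower in 56.9%, with a median difference of -0.059. The pooled SD within groups was 0.11 to 0.22 for the 7 genes, with a median of 0.16, and had a median of 0.20 over all genes. The step between the w1118 arrays alone, array 1 minus array 2, was 0.21 to 0.24 for epsilonCOP, deltaCOP, gammaCOP and Sec13. Their folds between the groups were 0.52 to 0.96. The step was 0.14 for Sec16 beside a fold of 0.54, 0.37 for eca beside -0.59, and -0.13 for Sec31 beside 0.19.

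**Figure D3:**
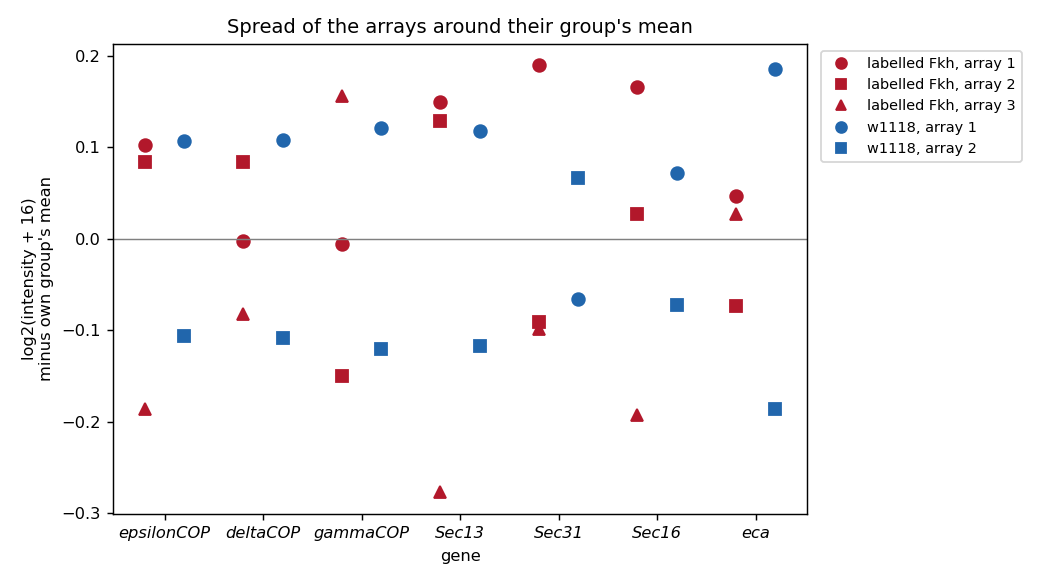
Log2(intensity + 16) of each array minus the mean of its own group (vertical axis) for the 7 coat genes, with arrays labelled Fkh in red and w1118 arrays in blue. The first w1118 array is above the second for every gene except Sec31, and the third array labelled Fkh is the lowest of its group for epsilonCOP, deltaCOP, Sec13, Sec31 and Sec16.

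The rest of both coats was tested with the same fit. It was listed by role, with earlier results of these data known, and without the coat genes described above. Taking out genes picked with this contrast in view can lower the number called among those left. This also holds for the other COPII regulators, the other p24 genes and the total over the pathway. Nothing is read from these counts against the shares of all genes. Of 8 other coat subunits, 5 had a probe set of their own, and 0 of these 5 passed limma's adjusted threshold, whereas 2 had an unadjusted p under 0.05. All 5 folds were above 0, as were 49.5% of those of all genes, with a median of 0.24. In the coatomer, alphaCOP, which forms the outer layer with epsilonCOP, had 535, 560 and 488 on the arrays labelled Fkh and 450 and 479 on the w1118 arrays, a log2 fold of 0.18 (standard error 0.15, limma adjusted p = 0.39). The large subunit betaCOP had 574, 588 and 650 on the arrays labelled Fkh and 591 and 439 on the w1118 arrays, so that the groups overlapped (log2 fold 0.24, limma adjusted p = 0.34). Its fold was 0.44 without w1118 array 1 and 0.029 without w1118 array 2. The small subunit zetaCOP was dim, with 65.8, 44.0 and 66.5 on the arrays labelled Fkh and 39.1 and 31.6 on the w1118 arrays. Its log2 fold was 0.53 (limma adjusted p = 0.075), and it passed without array 2 labelled Fkh, at 0.68 (limma adjusted p = 0.041), after quantile normalization, at 0.58 (limma adjusted p = 0.040), and with the arrays shifted to 1 median, at 0.57 (limma adjusted p = 0.046).

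In the COPII inner layer, both Sec24 paralogues, which select cargo, were measured. Sec24AB had 716, 720 and 898 on the arrays labelled Fkh, against 374 and 635 on the w1118 arrays, a log2 fold of 0.65 (limma adjusted p = 0.081). The gap between its w1118 arrays decided the call: the fold was 0.28 (limma adjusted p = 0.42) without w1118 array 1 and 1.02 (limma adjusted p = 0.027) without w1118 array 2. Sec24CD had a log2 fold of 0.072 (limma adjusted p = 0.75), which turned to -0.083 after quantile normalization, -0.047 without w1118 array 1 and -0.066 with the third array labelled Fkh alone. The subunits beta'COP, Sar1 and Sec23 were not analysed here.

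Beyond the coats, 36 further genes listed for the early secretory pathway were tested, of which 8 rose and 5 fell, or 36.1%. Together with the 5 other coat subunits, and without the coat genes picked beforehand, that is 13 of 41, or 31.7%, beside 40.8% of all genes. The median log2 fold of the 41 was 0.11, and it was -0.024 after quantile normalization and -0.059 with the third array labelled Fkh alone. Without w1118 array 1, 6 rose and 2 fell, and 26.6% of all genes were called in that fit.

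**Figure D4:**
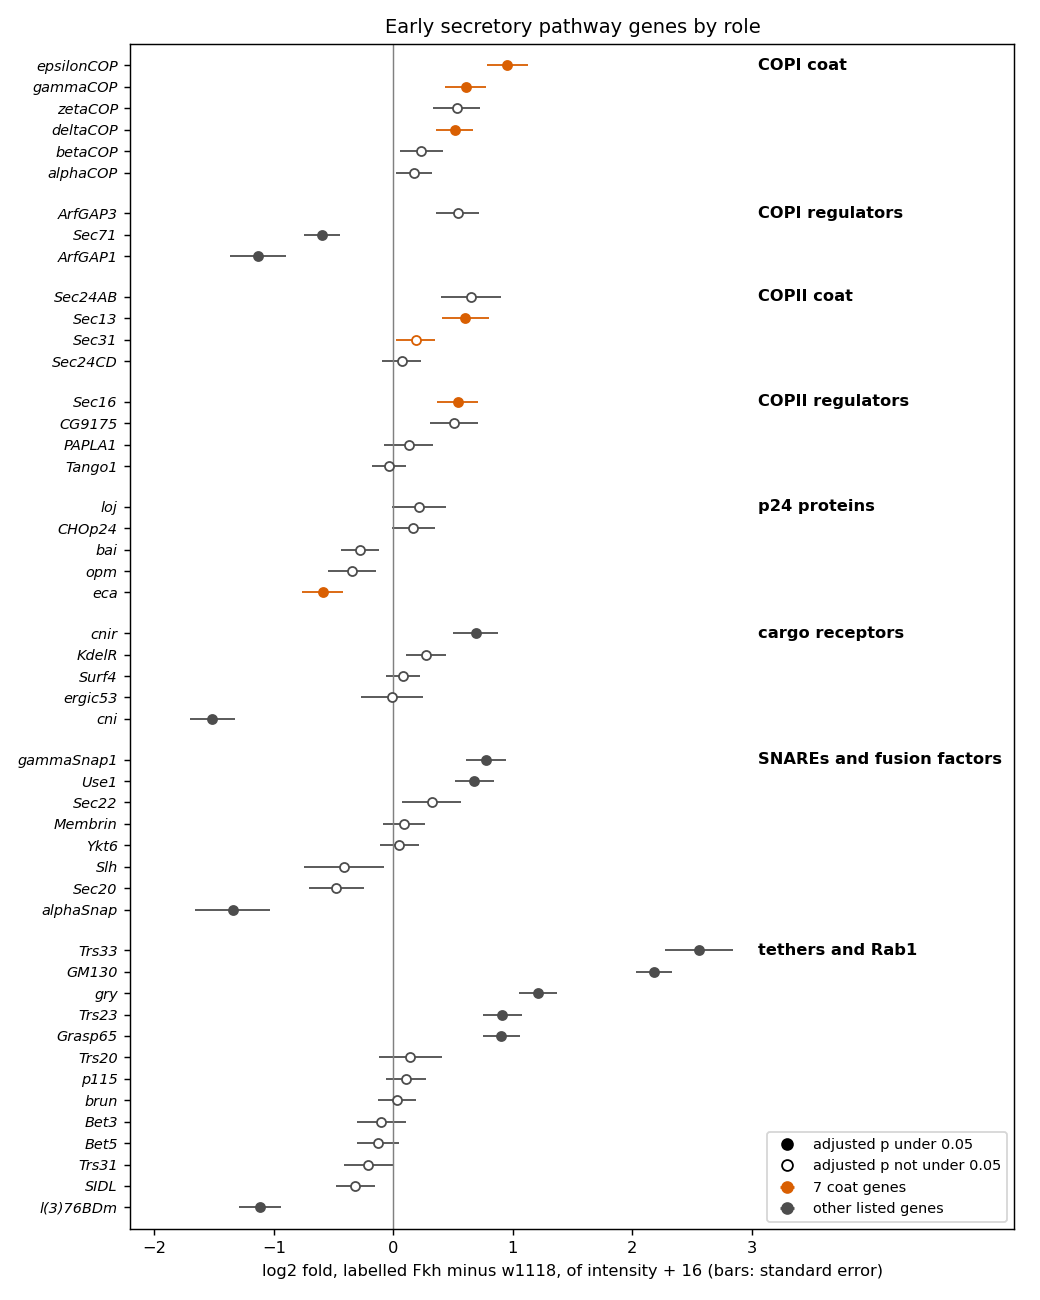
Log2 fold of intensity + 16, labelled Fkh minus w1118 (horizontal axis, bars show the standard error), of the 7 coat genes (orange) and the 41 other early secretory genes (grey), grouped by role, with filled points for adjusted p under 0.05. The coat genes lie within about 1 log2 unit of 0, and the largest folds of the plot are those of the tethers Trs33 and GM130, at 2.56 and 2.19.

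Of 3 measured regulators of Arf, which were listed under COPI but need not act on this coat alone, 2 fell and 0 rose, beside 19.3% and 21.5% of all genes. ArfGAP1, which triggers GTP hydrolysis on Arf and so uncoating, had 662, 686 and 428 on the arrays labelled Fkh, against 1333 and 1249 on the w1118 arrays, a log2 fold of -1.13 (limma adjusted p = 0.0091). Its adjusted p was 0.060 without w1118 array 1. Sec71, an exchange factor for Arf, fell by 0.60 on the log2 scale (limma adjusted p = 0.020) and passed in 1 of the 5 fits with an array left out, that without array 3 labelled Fkh. In the other 4 its limma adjusted p was 0.056 to 0.10. ArfGAP3 had a log2 fold of 0.54 (limma adjusted p = 0.052), and it passed as higher with the arrays shifted to 1 median (limma adjusted p = 0.038), with a constant of 64 (0.035) and without array 3 labelled Fkh (0.047).

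Of the 3 other COPII regulators measured, 0 passed limma's adjusted threshold and 1 had an unadjusted p under 0.05. That 1 was CG9175, which RefSeq lists as Sec12, the exchange factor that activates Sar1. It had a log2 fold of 0.51 (limma adjusted p = 0.086), and 0.67 without array 3 labelled Fkh (limma adjusted p = 0.016). Tango1, which helps load large cargo at exit sites, had a log2 fold of -0.035 (limma adjusted p = 0.87).

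Among the 4 other p24 genes measured, 0 passed limma's adjusted threshold and 0 had an unadjusted p under 0.05, with log2 folds of -0.35 to 0.22. Of these bai (baiser), which like eca is needed for dorsoventral patterning of the fly embryo, had 3307, 3575 and 3126 on the arrays labelled Fkh, against 4419 and 3698 on the w1118 arrays, a log2 fold of -0.28 (limma adjusted p = 0.21).

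The cargo receptors split, with 1 of 5 rising and 1 falling, or 40%, beside 40.8% of all genes. The cornichon gene cni fell to 1310 ± 214 (SD, n = 3) on the arrays labelled Fkh, against 3749 ± 278 (SD, n = 2) on the w1118 arrays, a log2 fold of -1.52 (limma adjusted p = 0.0011). Its relative cnir rose by 0.69 (limma adjusted p = 0.026), with adjusted p of 0.058, 0.053 and 0.16 without array 1 labelled Fkh, array 2 labelled Fkh and w1118 array 1. The other 3 of the 5 measured, ergic53, KdelR and Surf4, had log2 folds of -0.012 to 0.27 and did not pass.

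Of 8 SNAREs and fusion factors measured, 2 rose and 1 fell, or 37.5%, beside 40.8% of all genes. The gene gammaSnap1 rose by 0.78 (limma adjusted p = 0.011, and 0.078 without w1118 array 2), and Use1, a SNARE of the ER that receives COPI vesicles, by 0.68 (limma adjusted p = 0.017). Use1 passed only without array 3 labelled Fkh among the fits with an array left out, and its limma adjusted p was 0.052 to 0.083 in the other 4. The SNARE disassembly adaptor alphaSnap had 1111, 1125 and 576 on the arrays labelled Fkh, against 2571 and 2061 on the w1118 arrays, a log2 fold of -1.34 (limma adjusted p = 0.016). Its adjusted p was 0.10 without w1118 array 1 and 0.051 without w1118 array 2.

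The largest folds of the pathway were at the tethers, which catch vesicles at the Golgi. Of 13 measured, 5 rose and 1 fell, or 46.2%, which is near the 40.8% of all genes. All 6 calls were made in each of the 5 fits with an array left out. GM130, a golgin of the cis-Golgi, had 2364, 2530 and 2151 on the arrays labelled Fkh, against 497 and 508 on the w1118 arrays, a log2 fold of 2.19 ± 0.15 (limma adjusted p = 8.6e-05). Trs33, a subunit of the TRAPP complexes that activate Rab1, had 1103, 1220 and 677 on the arrays labelled Fkh, against 179 and 127 on the w1118 arrays (log2 fold 2.56, limma adjusted p = 0.00073). The TRAPP gene gry rose by 1.21 (limma adjusted p = 0.0014) and the TRAPP gene l(3)76BDm fell by 1.12 on the log2 scale (limma adjusted p = 0.0029). The TRAPP gene Trs23 and the Golgi stacking gene Grasp65, the other 2 that rose, had log2 folds of 0.91 each (limma adjusted p = 0.0052 and 0.0044). The remaining TRAPP genes measured, Bet3, Bet5, brun, SIDL, Trs20 and Trs31, had log2 folds of -0.32 to 0.14 and did not pass.

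Of the gland regulators, sage, a partner of fkh in the embryo, had 2974, 2892 and 2250 on the arrays labelled Fkh, against 597 and 508 on the w1118 arrays (log2 fold 2.25, limma adjusted p = 2e-04). The factors CrebA and Xbp1 were not analysed here.

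Genes whose pattern over the 5 arrays was closest to that of a coat gene were sought by the mean absolute difference between log2 values, each gene centred on its own mean. Nearest to epsilonCOP were flw, a protein phosphatase 1 catalytic subunit gene, at 0.0291, Cals, at 0.0295, and CG1344, at 0.0330. Nearest to eca were CG30457 at 0.026, Zasp66, a muscle Z-disc protein gene, at 0.027, and CG13036 at 0.028. With 5 arrays in 2 groups, such closeness is set mostly by the step between the groups.

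Position was a property the choice of genes did not use. By gene order in the RefSeq table (Release 6 plus ISO1 MT), the 7 genes have 14 direct protein-coding neighbours, of which 8 had a probe set that passed the filter. Of these 8, 1 rose and 2 fell, or 37.5%, beside 40.8% of all genes. The 2 that fell, named after their values were seen, are both neighbours of deltaCOP: Lamtor5 and Gcna, with log2 folds of -0.83 and -3.03 (limma adjusted p = 0.0054 and 0.00032), while deltaCOP itself was higher. The 1 that rose, also named after its values were seen, was CG1463 beside Sec16, at 2.36 times its w1118 mean (limma adjusted p = 0.024). The measured neighbours of epsilonCOP and eca did not pass.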

How the data were processed

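Per the series' design text, the authors normalized the deposited intensity values, 1 per probe set on a linear scale, with dChip to 1 baseline array of median intensity 134. Neither dChip's version nor its model is stated. The 183 control probe sets were left out. Of the other 18769, 13647 have 1 gene symbol, 402 several and 4720 none, and 13544 matched the RefSeq table. Values were taken as log2(intensity + 16), which understates folds of dim genes. Probe sets with a mean above the 40th percentile (5.62) were kept, 11261 in all. The test was limma 3.58.1's lmFit and eBayes under R 4.3.3 (two-sided, Benjamini-Hochberg threshold 0.05). A gene is its brightest probe set with 1 symbol. The coat genes and all lists were chosen with earlier results of these data known. Of 55 other listed genes, 14 had no such probe set and were not analysed here. Genes named are all coat subunits, up to 4 called genes of smallest p per role or 1 where none was called, fkh, CrebA, Xbp1, sage and the nearest patterns. Others are named as parts of a role's count or as said in the text. The procedure was run on simulated data with planted changes larger than the fold of any coat gene. That run does not bear on calls of their size. The number of arrays limits precision. Figures used matplotlib 3.10.9.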

Additional observations from a re-analysis of the deposited data

How the results depend on the processing

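The filters and the trended prior leave a log2 fold as it is, and the block repeats the fold without array 3 labelled Fkh. Over the 10 other alternatives, 62 of 70 log2 folds of the coat genes moved by less than the SD between replicates, 8 moved by more and 0 changed sign. That SD comes from the same arrays, so small moves were largely set in advance and are no test of stability. The number of coat genes past the threshold, 6 as reported, was 2 after quantile normalization, 3 with a constant of 1, 1 with no filter, 3 with the 20th percentile filter and 0 by limma with the third array labelled Fkh alone, where 2 had an unadjusted p under 0.05, the spread comes from the w1118 pair alone and the lone array is assumed to vary like it. It ranged from 1 to 6 with an array left out, where the share of all genes called ranged from 26.6% to 45%. The cause of these losses was not tested. The number of called probe sets, 4432 as reported, was 2734 with the third array labelled Fkh alone and ranged from 2820 to 4890 with an array left out. The number of other early secretory genes called, 13 as reported, was 8 with the third array labelled Fkh alone and ranged from 8 to 15 with an array left out. With the replicate number as a block over arrays 1 and 2 of each group, 4 coat genes, 14 other early secretory genes and 4379 probe sets were called, beside 6, 15 and 4890 for the same 4 arrays without the block. The array 1 minus array 2 differences of both groups correlated at -0.026 over 11261 probe sets, so no pairing by replicate number was seen. This cannot show whether arrays shared a batch, since an effect common to arrays 1 and 2 of a group cancels in the difference. Folds of dim genes such as zetaCOP, which averaged 58.8 on the arrays labelled Fkh and 35.3 on the w1118 arrays, are compressed by the added constant.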
